A study of Homo sapiens with 6 samples.

Results

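HIF1A and its hypoxia response genes were examined in RH30 cells, an established line from a human alveolar rhabdomyosarcoma, with and without an inhibitor of classical NF-κB. The set held 10 genes chosen by symbol, of which 9 had a named transcript cluster, and each of the 9 had 1 cluster, out of 22411 genes measured. CA9 had no cluster under its symbol in the annotation used here and was not analysed. The values came from RH30 vector cells, infected with the empty retrovirus (3 arrays), and from RH30 cells stably carrying the IκBα super repressor, IκBα SR (3 arrays), a form of IκBα that cannot be degraded and holds classical NF-κB outside the nucleus. Both lines grew in DMEM with serum, and no oxygen treatment is named for these samples. Each group was cultured in triplicate, and no source says whether the cultures came from separate infections, so p-values here reflect only how far these cultures differ, which may be technical.

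HIF1A and EPAS1 encode the oxygen-regulated subunits of the hypoxia-inducible factors, and ARNT encodes the stable partner with which they bind DNA. When oxygen is present, the prolyl hydroxylases encoded by EGLN1 and EGLN3 mark the regulated subunit, and the VHL protein then directs it to degradation. Under low oxygen it accumulates and raises genes such as VEGFA, CA9, ADM and BNIP3, and also EGLN1 and EGLN3, which close a feedback loop. The factor is regulated mostly at the protein level, which an expression array does not measure. HIF1A is also known as a gene that NF-κB can activate.

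The values are log2 RMA values, which are background corrected, normalized between arrays and summarized over the probes of a cluster. The median over all clusters of an array lay between 4.34 and 4.40, and 764 to 824 clusters per array lay above 16, the log2 limit of a 16-bit scanner, so fold changes are on the scale of the deposited values. NFKBIA, which encodes IκBα and whose sequence the super repressor carries, rose from 11.62 ± 0.04 to 13.62 ± 0.10 (SD, n = 3), a log2 fold change of 2.00 (adjusted p = 1.4e-04). Among 9 muscle and rhabdomyosarcoma markers, 5 passed the test upward and 2 downward, with log2 values that summed to 95.5 to 96.2 in vector cells and 95.4 to 97.2 in IκBα SR cells. Of the defining genes of the lineage, MYOD1 lay between 12.62 and 13.43 and DES between 14.71 and 15.75 over the 6 arrays, and TFAP2B lay below the median gene. The higher markers were DES (log2 fold change 1.00), CHRNA1 (0.67), MYOD1 (0.62), CDH15 (0.58) and FGFR4 (0.19), and the lower ones were MYF5 (-1.33) and MYOG (-1.17). DES and CHRNA1 were each listed at 1 value on all vector arrays, so their errors rest on the IκBα SR arrays and the spread shared across genes. The part of these marker changes in the results was not tested. Of 14 endothelial, leukocyte and epithelial markers, 13 lay below the median gene (5.13), none was higher and 2 were lower. Those 2 were PECAM1 (mean 4.12 in vector and 3.86 in IκBα SR cells) and ITGAM (4.30 and 4.06). Both lay near or below the median cluster of the arrays, where a gene cannot be told from background. In such cultures of a single line, fewer cells in a given state and less RNA per cell cannot be told apart.

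The sequences upstream of the genes that passed the test are shown because the hypoxia-inducible factors bind a short core there, the hypoxia response element. Of the 10 genes, 8 had a promoter window in the RefSeq table of GRCh38.p14, from 250 bases before to 50 after a start site, and HIF1A had 2 such windows. The letters ACGTG and GCGTG, the core of the element, were searched on both strands. Over all 35116 windows, 21.4% held ACGTG, 36.5% held GCGTG and 48.4% held at least 1 of the cores, so a match is common. The capitals below mark these cores, and overlapping matches run together.
BNIP3, chr10:131981874-131982173, minus strand, GRCh38.p14: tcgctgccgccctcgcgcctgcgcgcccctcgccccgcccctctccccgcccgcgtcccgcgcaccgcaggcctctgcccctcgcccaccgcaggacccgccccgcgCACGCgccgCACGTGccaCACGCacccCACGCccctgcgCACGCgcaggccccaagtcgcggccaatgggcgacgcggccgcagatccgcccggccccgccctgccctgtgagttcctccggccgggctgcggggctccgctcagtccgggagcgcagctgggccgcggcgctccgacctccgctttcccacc
EGLN1, chr1:231422238-231422537, minus strand, GRCh38.p14: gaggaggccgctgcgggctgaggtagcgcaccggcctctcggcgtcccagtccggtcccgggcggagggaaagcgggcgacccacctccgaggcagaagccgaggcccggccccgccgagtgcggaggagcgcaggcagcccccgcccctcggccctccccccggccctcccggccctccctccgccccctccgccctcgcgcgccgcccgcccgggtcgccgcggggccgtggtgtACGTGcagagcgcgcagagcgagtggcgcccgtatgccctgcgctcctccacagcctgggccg
EGLN3, chr14:33951025-33951324, minus strand, GRCh38.p14: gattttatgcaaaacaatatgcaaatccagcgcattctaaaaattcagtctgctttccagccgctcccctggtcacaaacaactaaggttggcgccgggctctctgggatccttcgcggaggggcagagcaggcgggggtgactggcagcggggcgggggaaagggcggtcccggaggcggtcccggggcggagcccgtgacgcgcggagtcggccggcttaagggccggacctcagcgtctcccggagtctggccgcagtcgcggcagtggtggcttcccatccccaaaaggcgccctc
HIF1A, chr14:61695263-61695562, plus strand, GRCh38.p14: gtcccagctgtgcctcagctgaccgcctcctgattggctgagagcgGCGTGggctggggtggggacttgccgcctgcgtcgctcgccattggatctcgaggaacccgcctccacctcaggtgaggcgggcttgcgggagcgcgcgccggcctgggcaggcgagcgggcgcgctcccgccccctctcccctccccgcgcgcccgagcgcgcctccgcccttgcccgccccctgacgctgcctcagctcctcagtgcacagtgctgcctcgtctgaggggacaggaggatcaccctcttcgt
EPAS1, chr2:46297157-46297456, plus strand, GRCh38.p14: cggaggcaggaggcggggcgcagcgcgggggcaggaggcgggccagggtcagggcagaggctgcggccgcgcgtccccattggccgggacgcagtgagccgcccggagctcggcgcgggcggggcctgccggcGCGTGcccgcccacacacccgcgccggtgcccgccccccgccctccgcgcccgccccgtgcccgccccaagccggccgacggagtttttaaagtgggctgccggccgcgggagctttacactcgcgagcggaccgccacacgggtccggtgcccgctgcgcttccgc

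BNIP3 had the densest cluster of cores, with ACGTG on both strands at a palindrome whose first base is at position -134 from the start site, and GCGTG at 4 places on the reverse strand. EGLN1 had 1 ACGTG, at position -13. HIF1A and EPAS1 had 1 GCGTG each, the second HIF1A window had none, and EGLN3 had no core in this window. The windows of ADM and CA9 held 1 core each and that of ARNT none. The consensus site of NF-κB, the κB motif, was searched as GGGRNWYYCC (R is A or G, N any base, W A or T, Y C or T). It was found in 5.91% of all windows and, among these genes, once each in ARNT and CA9. Only full matches were counted. The letters GGGACTTGCC in the first HIF1A window, which depart from this pattern at 1 base, were thus left out, so a window without a match may still hold a related site. A match in these letters is a description of the sequence and shows no binding.

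Of the 9 measured genes, 3 were higher in IκBα SR cells (HIF1A, EGLN1 and EGLN3) and 2 were lower (BNIP3 and EPAS1) at an adjusted p under 0.05 from limma over all genes. Over all 22411 genes 18.3% passed the test, 9.76% higher and 8.58% lower. That share includes dim genes, whereas 2 of the 9 lay below the median gene (5.13). Of protein-coding genes no dimmer than the median gene, 20.5% were higher and 17.3% lower. The arrays of both groups did not overlap in 6 of the 9, against 29.6% of all genes, a share that also includes dim genes. The median log2 fold change was -0.03 over the 9 genes and 0.00 over all genes. The genes were chosen with earlier results known, and 9 genes are too few to set these shares against each other. For each of the 6 genes whose groups did not overlap, the exact 2-sided permutation test gave p = 0.1, the smallest that 3 arrays against 3 allow.

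**Figure D1:**
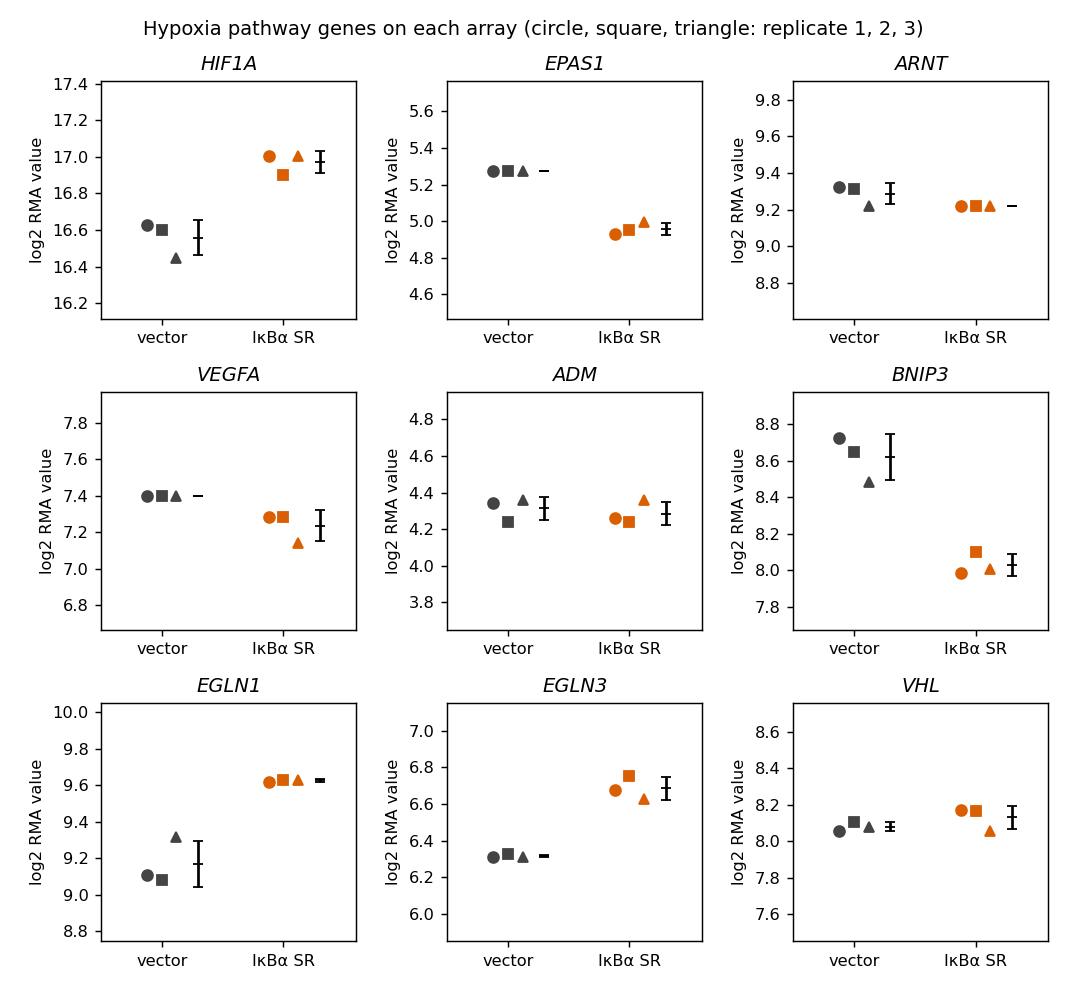
Log2 RMA value of each measured gene on each array (vector in grey, IκBα SR in orange; circle, square and triangle are replicates 1, 2 and 3), with the mean and SD of each group as black bars; every panel spans the same log2 range. HIF1A, EGLN1 and EGLN3 sit higher and BNIP3, EPAS1 and VEGFA lower on all 3 IκBα SR arrays, whereas ARNT, ADM and VHL overlap.

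HIF1A (cluster TC14002197.hg.1) was listed at 16.63, 16.60 and 16.45 in vector cells and at 17.01, 16.90 and 17.01 in IκBα SR cells. The IκBα SR values all exceeded those of vector cells, and all values lay above 16, where the scale is hard to tie to intensity. IκBα SR replicates 1 and 3 were listed at the same value. The log2 fold change was 0.41 (95% confidence interval 0.25 to 0.58, standard error 0.062, adjusted p = 0.013), a ratio of 1.33. The call did not hold without IκBα SR replicate 1 (adjusted p = 0.057) or without IκBα SR replicate 3 (adjusted p = 0.060), with a log2 fold change of 0.39 in both.
The other oxygen-regulated subunit ran the other way. EPAS1 (TC02000281.hg.1) was listed at 5.27 in all vector cultures and at 4.93, 4.95 and 4.99 in IκBα SR cells. Its log2 fold change was -0.32 (95% confidence interval -0.37 to -0.27, standard error 0.019, adjusted p = 8.1e-04), and the call held without each array in turn. These levels lie beside the median gene (5.13), close to background, and the identical vector values mean that its error rests on the IκBα SR arrays and the spread shared across genes.
ARNT (TC01003212.hg.1), their common partner, was listed at 9.32, 9.32 and 9.22 in vector cells and at 9.22 in every IκBα SR array. The value of vector replicate 3 equals that of the IκBα SR arrays, so the groups touched. Its log2 fold change was -0.07 (95% confidence interval -0.15 to 0.02, adjusted p = 0.30), and without vector replicate 3 it was -0.10 and passed the test (adjusted p = 0.0023). With identical IκBα SR values, the error of that fit rests on the remaining vector arrays and the spread shared across genes.

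The genes whose values over the 6 arrays were closest to those of HIF1A, each gene centered on its own mean, were F2R, which encodes a thrombin receptor, NCL, which encodes nucleolin, and STRAP. Their root mean square differences from HIF1A were 0.012, 0.020 and 0.022 on the log2 scale over 6 arrays. F2R, for example, was 9.51, 9.47 and 9.33 in vector cells and 9.91, 9.80 and 9.91 in IκBα SR cells. All 3 share with HIF1A a low vector replicate 3 and a low IκBα SR replicate 2, so the likeness includes differences between arrays of 1 group.

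Both measured prolyl hydroxylase genes of the set were higher in IκBα SR cells. EGLN1 (TC01003968.hg.1), which encodes the main oxygen sensor of this pathway, was 9.11, 9.08 and 9.32 in vector cells and 9.62, 9.63 and 9.63 in IκBα SR cells. The IκBα SR arrays were nearly equal, with the same listed value for replicates 2 and 3. Vector replicate 3 lay apart from the other vector arrays, toward the IκBα SR arrays. The log2 fold change was 0.46 (95% confidence interval 0.28 to 0.64, standard error 0.068, adjusted p = 0.013), a ratio of 1.37. Without IκBα SR replicates 1, 2 or 3 in turn the adjusted p was 0.054, 0.059 and 0.059, so the call was lost in each of these fits. The log2 fold change stayed at 0.46 in each, and a fit with fewer arrays has less power.
EGLN3 (TC14001022.hg.1), a hydroxylase gene that hypoxia-inducible factors raise strongly, was 6.31, 6.32 and 6.31 in vector cells and 6.68, 6.75 and 6.63 in IκBα SR cells. The groups lay well apart against the spread within them, but vector replicates 1 and 3 were listed at the same value. The log2 fold change was 0.37 (95% confidence interval 0.28 to 0.46, standard error 0.035, adjusted p = 0.0030), a ratio of 1.29, and the call held without each array in turn.
VHL (TC03000055.hg.1), which encodes the recognition subunit of the ubiquitin ligase, was 8.05, 8.10 and 8.08 in vector cells and 8.17, 8.16 and 8.06 in IκBα SR cells. IκBα SR replicate 3 lay within the vector range. The log2 fold change was 0.05 (95% confidence interval -0.05 to 0.15, adjusted p = 0.51), an interval that leaves out changes below -0.05 or above 0.15.

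None of the 3 measured target genes that act in vessels or mitochondria was higher. BNIP3 (TC10001769.hg.1), which encodes a mitophagy receptor of the mitochondrial outer membrane, was 8.73, 8.65 and 8.48 in vector cells and 7.99, 8.10 and 8.01 in IκBα SR cells. All IκBα SR arrays were lower, and this was the largest change of the 9 genes, at a log2 fold change of -0.59 (95% confidence interval -0.79 to -0.39, standard error 0.075, adjusted p = 0.0076). The level was 0.665 times that of vector cells, and the call held without each array in turn. The pseudogene BNIP3P1, whose sequence is related, stood at -0.45 with overlapping groups (adjusted p = 0.29), and the clusters may share signal.
VEGFA (TC06000608.hg.1), which encodes the growth factor that drives vessel formation, was listed at 7.40 in all vector cultures and at 7.28, 7.28 and 7.14 in IκBα SR cells. The groups did not overlap, but IκBα SR replicate 3 lay apart from the other arrays of its group. The log2 fold change was -0.16 (95% confidence interval -0.28 to -0.04, adjusted p = 0.087), and without IκBα SR replicate 3 it was -0.11 and passed the test (adjusted p = 0.0038). With identical vector values, the error of that fit rests on the remaining IκBα SR arrays and the spread shared across genes.
ADM (TC11000182.hg.1), which encodes the vasodilator peptide adrenomedullin, was 4.34, 4.24 and 4.36 in vector cells and 4.26, 4.24 and 4.36 in IκBα SR cells. Its values lay at the median cluster of the arrays, where a gene cannot be told from background, and the groups overlapped (log2 fold change -0.03, adjusted p = 0.77).

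**Figure D2:**
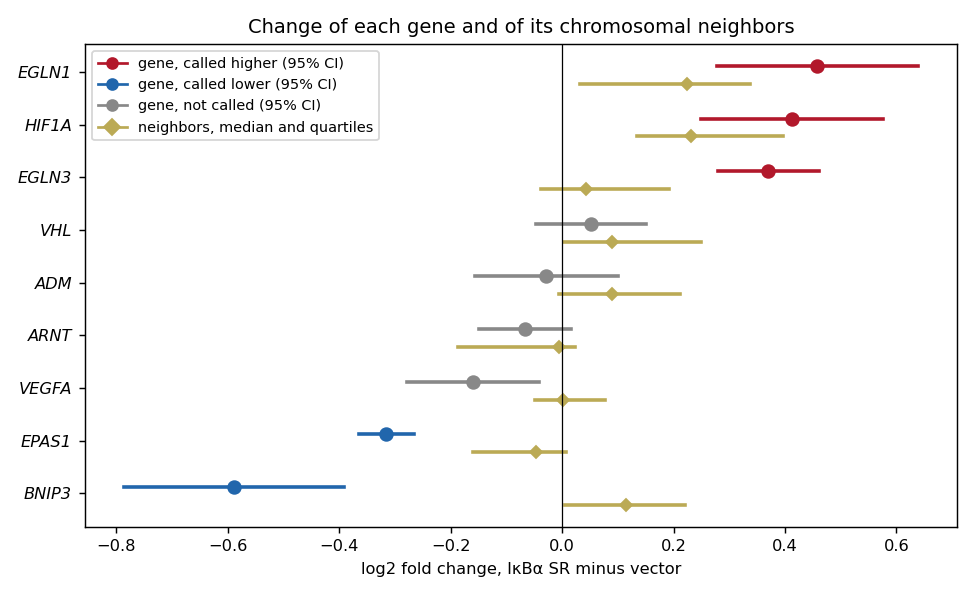
Log2 fold change of each measured gene, IκBα SR minus vector, with its 95% confidence interval from limma (red, called higher; blue, called lower; grey, not called), beside the median and quartiles of its neighboring protein-coding genes (yellow). EGLN1, HIF1A and EGLN3 lie between 0.37 and 0.46, and BNIP3 lies at -0.59 while its neighbors have a median of 0.11.

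Each gene was also read beside its nearest protein-coding neighbors, up to 10 on each side, leaving out those dimmer than the median gene. Of all 9573 protein-coding genes no dimmer than that, 20.5% were higher and 17.3% lower, and their median log2 fold change was 0.00. Around HIF1A on chromosome 14, 12 of 20 neighbors were higher and none was lower, with a median log2 fold change of 0.23 and quartiles of 0.13 and 0.40. The next genes on 1 side, SNAPC1, RHOJ, PPP2R5E and WDR89, had log2 fold changes of 0.83, 0.63, 0.47 and 0.37, and the nearest on the other side, SLC38A6, had 0.27. The part of the neighborhood in the value of HIF1A was not tested. Around EGLN1 on chromosome 1, 9 of 20 neighbors were higher, none was lower and 11 were not called, at a median of 0.22. Around EGLN3, on chromosome 14 as well, 4 of 20 were higher and 1 was lower at a median of 0.04, although its next neighbor AKAP6 had a log2 fold change of 1.11. Around BNIP3 on chromosome 10, 5 of 15 neighbors were higher and 1 was lower, at a median of 0.11. Around EPAS1 on chromosome 2, 4 of 20 were lower and none was higher at a median of -0.05, and all 4 lay on 1 side, among them PRKCE next to it (-0.37). For ARNT, VEGFA, ADM and VHL the neighbor medians were -0.0049, 0.0021, 0.089 and 0.090. DNA was not analysed here.

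**Figure D3:**
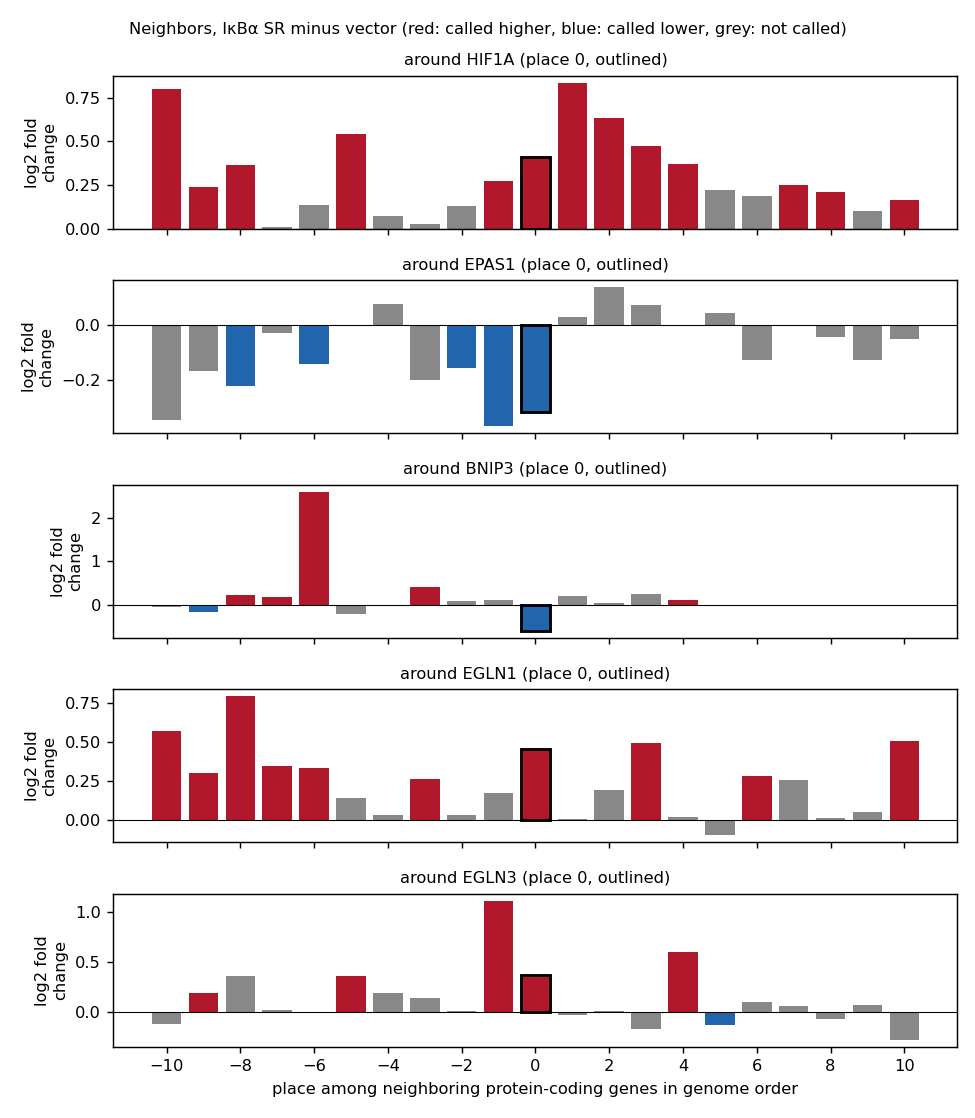
Log2 fold change, IκBα SR minus vector, of each called gene (place 0, outlined) and of its neighboring protein-coding genes in genome order (red, called higher; blue, called lower; grey, not called), with a separate vertical scale per panel. The genes around HIF1A are all above 0, from 0.01 for DHRS7 to 0.83 for SNAPC1, and BNIP3 points down among mostly positive bars.

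Other genes of the pathway were read from 8 lists by role that share no gene with the set above. Of 91 genes listed 84 were measured, and 11 were higher (13.1%) and 20 lower (23.8%), with a median log2 fold change of 0.00. The background shares of 9.76% higher and 8.58% lower cover all genes, dim ones included, whereas 20 of these 84 genes lay below the median gene, so the shares cannot be compared directly. Protein-coding genes no dimmer than the median gene were 20.5% higher and 17.3% lower, a share that leaves out all dim genes. Single lists held 5 to 17 measured genes, too few to set their counts against either share. Of the 31 calls, 22 held without each array in turn.

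Among further subunits and partners of the factors, 1 of 6 measured genes was higher and none was lower, at a list median of 0.06. It was CITED2, which encodes a protein that competes with HIF1A for its coactivators and is itself raised by the factor, with a log2 fold change of 0.48 (adjusted p = 0.037). The CITED2 call was lost without vector replicate 1, 2 or 3 or IκBα SR replicate 2 or 3 (adjusted p up to 0.13). The coactivator gene CREBBP had a log2 fold change of 0.04 and BMAL1, a relative of ARNT, one of 0.09, neither past the threshold.
Among genes of oxygen sensing and HIF turnover, 1 of 13 was higher and 1 lower, at a median of -0.06. The higher gene was SENP1 (0.39, adjusted p = 0.0052), a protease that removes SUMO from HIF1A, and it held without each array. The lower gene was OS9 (-0.36, adjusted p = 0.021), which encodes a lectin of the endoplasmic reticulum that also binds HIF1A. Its call was lost without any 1 of the arrays other than vector replicate 3 (adjusted p up to 0.084). OS9 was listed between 17.79 and 18.28 over all arrays, above 16, where the scale is hard to tie to intensity. The chaperone genes HSP90AA1 and HSP90AB1 had log2 fold changes of -0.11 and 0.01, with all values above 16 as well. The remaining prolyl hydroxylase gene of this family, EGLN2, was 7.63, 7.61 and 7.78 in vector cells and 7.41, 7.48 and 7.48 in IκBα SR cells. It was lower on all 3 IκBα SR arrays, unlike EGLN1 and EGLN3, but at -0.21 it did not pass the test (adjusted p = 0.064; 0.042 without vector replicate 3). HIF1AN, which encodes the asparaginyl hydroxylase that blocks coactivator binding, stood at 0.08 (adjusted p = 0.43).

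Among VEGF ligands and receptors, 4 of 9 genes were lower and none was higher, at a median of -0.02. VEGFC, which encodes the growth factor of lymphatic vessels, fell from 10.10, 10.09 and 10.11 in the vector arrays to 8.36, 8.53 and 8.25 in IκBα SR cells. Its log2 fold change was -1.72 (standard error 0.076, adjusted p = 3.5e-04), and its groups lay far apart. NRP1 and NRP2, which encode co-receptors for VEGF family ligands and semaphorins, had log2 fold changes of -0.68 and -0.62, and the placental growth factor gene PGF had -0.44, each called in all 6 fits that left out 1 array. NRP2 had means of 5.55 in vector and 4.93 in IκBα SR cells, beside the median gene (5.13) and close to background. The receptor genes FLT1, KDR and FLT4 were listed at 1 value on all 6 arrays, 3.44, 3.52 and 4.24, below the median gene. VEGFB stood at 0.26 on the log2 fold change scale (adjusted p = 0.22). None of the 5 genes for adrenomedullin relatives and receptors was called at an adjusted p under 0.05. All 5 lay below the median gene. RAMP1 and CALCRL had log2 fold changes of 0.05 and -0.13. CALCRL passed the test without vector replicate 3 (adjusted p = 0.040), but its values on the IκBα SR arrays were identical.

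Among pH and metabolism targets, 2 of 12 were higher and 3 lower, at a median of -0.04. SLC2A1, which encodes the glucose transporter GLUT1, and the hexokinase gene HK2 were both higher by 0.46 on the log2 scale, while AK4, a mitochondrial adenylate kinase (-0.62), PGK1 (-0.39) and ENO2 (-0.31) were lower. PGK1 was listed at 14.28 on every IκBα SR array, so its error rests on the vector arrays and the spread shared across genes. The ENO2 call was lost without vector replicate 3 or any IκBα SR array (adjusted p up to 0.084). LDHA and PDK1, other well-known targets, had log2 fold changes of 0.035 and -0.12 and were not called. PDK1 passed without IκBα SR replicate 1 (adjusted p = 0.018), but its values on the vector arrays were identical. Called genes of glucose metabolism thus stood on both sides.
Genes of the mitophagy and stress list also ran both ways, with 2 of 9 higher and 2 lower. BNIP3L, which encodes a receptor closely related to BNIP3, was 12.62, 12.68 and 12.72 in vector cells and 13.01, 13.00 and 13.00 in IκBα SR cells. Its log2 fold change of 0.33 (adjusted p = 0.0021) had the opposite sign to that of BNIP3. MXI1, an antagonist of MYC, was higher by 0.14, but its values on the IκBα SR arrays were identical. HILPDA, a lipid droplet protein gene (-0.39), and the autophagy gene BECN1 (-0.35) were lower, and their calls were lost without several single arrays, namely vector replicates 1 and 2 and IκBα SR replicates 1, 2 and 3 for HILPDA (adjusted p up to 0.090) and all vector replicates and IκBα SR replicate 1 for BECN1 (adjusted p up to 0.080). ERO1A and FUNDC1 had log2 fold changes of 0.18 and -0.09 and were not called.

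Among vessel, matrix and iron targets, 5 of 13 were lower and 2 higher, at a median of 0.01. MET, which encodes the receptor of hepatocyte growth factor, was lower at a log2 fold change of -1.34 (adjusted p = 1.5e-04), and PLOD1, a lysyl hydroxylase of collagen, was lower at -1.02 (adjusted p = 8.2e-05). LOXL2 (-0.28), P4HA1 (-0.28) and PLOD2 (-0.16), which modify collagen as well, were also lower, with the PLOD2 call lost without vector replicate 3, IκBα SR replicate 1 or IκBα SR replicate 2 (adjusted p up to 0.076). LOX, another collagen modifier, was higher by 0.24, and TFRC, the transferrin receptor gene through which cells take up iron, was higher by 0.70. EDN1 (0.37, adjusted p = 0.077) and CXCR4 (0.03) did not pass the test, and EDN1 passed without vector replicate 1 (adjusted p = 0.042).
In the remaining list of transcription, chromatin and other core targets, 3 of 17 genes were higher and 5 lower, at a median of 0.00. The transcription factor genes ETS1 (-1.81, adjusted p = 4.3e-04) and KLF10 (-0.88) showed the largest decreases and TMEM45A the largest increase (1.12, adjusted p = 0.0017). RORA, a nuclear receptor gene (0.46), and KDM4B, a histone demethylase gene (0.10), were higher, while BHLHE41 (-0.36), JMJD6 (-0.32) and PPFIA4 (-0.21) were lower. The values of KDM4B on the vector arrays were identical. The KDM4B call was lost without any array but IκBα SR replicate 2 (adjusted p up to 0.14), the BHLHE41 call without any vector array or IκBα SR replicate 3 (up to 0.14), and the JMJD6 call without any array but vector replicate 3 (up to 0.096). KDM3A, a histone demethylase gene and common marker of the response, was listed at 8.70 on all 6 arrays, and BHLHE40 stood at -0.40 (adjusted p = 0.11). The common targets NDRG1, ANKRD37, DDIT4 and ANGPTL4 had log2 fold changes between -0.03 and 0.10, none past the threshold. DDIT4 came from the mitophagy and stress list and ANGPTL4 from the vessel, matrix and iron list. ANKRD37 and ANGPTL4 lay below the median gene (5.13). NDRG1 passed without IκBα SR replicate 1 (adjusted p = 0.014), but its values on the vector arrays were identical.

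**Figure D4:**
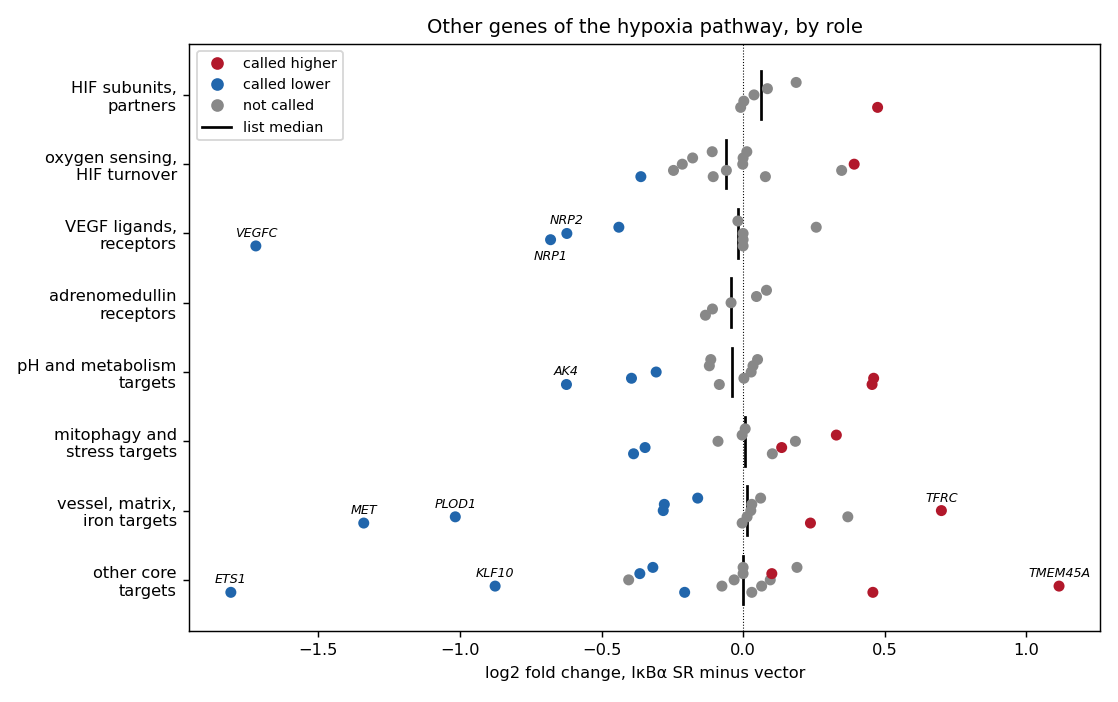
Log2 fold change, IκBα SR minus vector, of 84 other hypoxia pathway genes in 8 lists by role (points; red, called higher; blue, called lower; grey, not called), with the median of each list as a black line. The list medians lie between -0.06 and 0.06, the largest decreases are ETS1 (-1.81), VEGFC (-1.72) and MET (-1.34), and TMEM45A (1.12) is the largest increase.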

How the data were processed

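RNA from 3 RH30 vector and 3 RH30-IκBα SR cultures was measured on the Affymetrix Human Transcriptome Array 2.0, and the number of arrays limits the precision. The authors deposited log2 values from RMA, which normalizes between arrays and so removes a change shared by all genes. Expression Console is named in the submitters' processing notes and the Transcriptome Analysis Console in the methods, and their versions and the annotation's build are not given in the sources here. Symbols of 23781 clusters with 1 symbol were updated with RefSeq for GRCh38.p14, and 1543 clusters with several were left unnamed. The brightest cluster per gene was kept. In 6147 of 22411 genes, 3 members among them, at least 1 group held identical values, and why was not tested. Values shared by only some arrays of a group, as in HIF1A, EGLN1 and EGLN3, are not in that count, and they too can make the spread within a group look small.

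The test was limma 3.58.1 (lmFit, eBayes) under R 4.3.3, with adjustment by Benjamini-Hochberg across all genes, a threshold of 0.05 and no filter on level, after testing on simulated data. There, 10 of 50 changes of 0.25 and 30 of 50 of 0.5 on the log2 scale were recovered. For changes of 1 and 2 it was 38 and 45 of 50, and 6.82% of all calls were false. A small change that was not called may thus have been missed. The simulation had far fewer calls than the data (132 against 4110), and its noise was drawn independently for each array, whereas these arrays shared deviations. Its shares recovered and false therefore may not hold for these data. Each adjusted p comes from limma unless stated otherwise. Members, lists and tests were chosen with earlier results of these data known. Per list, up to 3 called genes per direction by smallest p and the 2 brightest others were named. PGF, P4HA1, PLOD2, BHLHE41, JMJD6, EGLN2, HIF1AN, NDRG1, ANKRD37, DDIT4, ANGPTL4, FLT1, KDR, BNIP3P1, the neighbors and the marker genes were named after their values were seen. Alternatives covered normalization, dim genes, choice of cluster, trend and robust variance, array weights, a block on replicate number, a plain t-test as in the methods, a fold threshold and each array left out. A fit without genes of identical values was chosen after seeing the data.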

Additional observations from a re-analysis of the deposited data

How the results depend on the processing

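BNIP3 kept its direction under all 17 alternatives run for it and its call in 16, EGLN3 in 16 of 17, EPAS1 in 14 of 15, HIF1A in 13 of 17 and EGLN1 in 12 of 17. Without each array in turn, 1 to 3 members were higher and 2 to 3 lower, of 2989 to 3791 genes that passed the test, and 9 to 12 list genes were higher and 15 to 19 lower. With the replicate number as a replicate block, 2450 genes passed the test (1327 higher and 1123 lower), 1 member was higher and 1 lower, and 7 list genes were higher and 12 lower; HIF1A (adjusted p = 0.083), EGLN1 (0.063) and BNIP3 (0.0502) were then not called by limma. Arrays with a common number did not deviate together as a rule (r = 0.164, -0.233 and -0.213 across 11206 genes, which are not independent), so the numbers were not taken as pairs. Arrays with different numbers did share deviations, most of all vector replicate 3 and IκBα SR replicate 2 (r = 0.371). The source of these shared deviations was not tested. A change of at least 1.5-fold, stricter by construction, left 1438 genes (820 higher and 618 lower), 0 members higher and 1 lower, and 2 list genes higher and 8 lower. Without genes with identical values 1 member was lower, since EPAS1 was not tested. ADM turned to 0.011 with array weights, still at background level. ARNT passed with array weights (adjusted p = 0.0499) and VEGFA without genes under the median gene (adjusted p = 0.041), both from limma; the cause was not tested. Low signal limits EPAS1, beside the median gene, and ADM, at the median cluster.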
